A study of Rattus norvegicus with 8 samples.

Results

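The typical MAP kinase phosphatases measured here were Dusp1, Dusp2, Dusp4, Dusp5, Dusp6, Dusp7, Dusp10 and Dusp16, which are 8 of the 17446 genes counted in rat whole blood. They were taken by gene name, and all 8 names were found among the counts. The group was proposed with results of these libraries in view, and it is not recorded which measured values the genes were chosen by. Their levels and differences are therefore given as a description, with standard errors and without p-values.

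MAP kinases are switched on when a threonine and a tyrosine of their activation loop are phosphorylated, and the typical dual-specificity phosphatases remove both phosphates. Many of these phosphatase genes are themselves transcribed in response to MAP kinase activity, which closes a negative feedback loop. Dusp1, Dusp2, Dusp4 and Dusp5 encode nuclear, inducible enzymes, Dusp6 and Dusp7 encode cytoplasmic enzymes that prefer ERK, and Dusp10 and Dusp16 encode enzymes that prefer the stress kinases JNK and p38. In blood cells they are known for limiting the signals of immune receptors, Dusp1 in innate immune cells and Dusp2 in activated lymphocytes.

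All libraries came from wild type male Wistar rats that carried a model of hypertension. The age given for the rats is 12 to 14 weeks, the same for every library although the blood was drawn at different weeks. AngII rats received angiotensin II from an osmotic minipump (0.4 mg/kg/day) and were bled at week 1, before Chios mastic gum (CMG), and again at week 5, when they had been given CMG at 220 mg/kg for 4 weeks. DOCA–HS rats received deoxycorticosterone acetate once a week (100 mg/kg) and drank water with 0.9% NaCl and 1% KCl. They were bled at week 3 and, when they had been given the same dose of CMG for 4 weeks, at week 7. CMG is a resin of the mastic tree. Each of these 4 groups had 2 libraries, and the sources used here do not say whether a library was 1 rat or a pool. No library of rats kept on either model without CMG was analysed here. Each difference after CMG therefore also holds 4 more weeks of the model and of age, and these cannot be told apart.

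The libraries held 4149104 to 13205565 counts, of which 61.9% to 84.3% fell on hemoglobin genes. Levels are CPM, the count of a gene over the scaled total of its library, with scaling by TMM, a normalization that sets most genes equal between libraries. The second DOCA–HS library after CMG stood apart, with 2686 genes at 10 or more counts against 6097 to 8280 in the other libraries and a TMM factor of 0.343 against 0.777 to 1.88. The 8 phosphatase genes together had 142 counts in that library and 805 to 2439 in the others, so the DOCA–HS fold change after CMG of each gene fitted is also given without it. Replicates of every group differed by more than their counting error (chi-square of 15.4 to 94.6 for each degree of freedom).

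The whole-blood label was checked against marker genes. All markers of erythroid cells and neutrophils found among the genes had counts in every library. Those of T cells, B cells and monocytes had counts in every library but the second DOCA–HS library after CMG, in which Cd5, Cd28, Blk and Cd14 were at 0.

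Promoter windows from RefSeq (assembly GRCr8, 250 bases before to 50 bases after the annotated start) were given for 7 of the 8 genes, all but Dusp4. They are shown for the genes with enough reads to follow, because Dusp1, Dusp2 and Dusp5 carry matches to motifs of signal-responsive factors and Dusp6 and Dusp7 carry none of those searched. Capitals mark matches on either strand to the cyclic AMP response element (CRE, TGACGTCA), its short form TGACG, the EGR site GCGNGGGCG or the CArG box bound by serum response factor. The windows are Dusp1 at chr10:17184603-17184902, Dusp2 at chr3:135009386-135009685, Dusp5 at chr1:262543524-262543823, Dusp6 at chr7:35979354-35979653 and Dusp7 at chr8:115887841-115888140, all on the plus strand of GRCr8.
Dusp1: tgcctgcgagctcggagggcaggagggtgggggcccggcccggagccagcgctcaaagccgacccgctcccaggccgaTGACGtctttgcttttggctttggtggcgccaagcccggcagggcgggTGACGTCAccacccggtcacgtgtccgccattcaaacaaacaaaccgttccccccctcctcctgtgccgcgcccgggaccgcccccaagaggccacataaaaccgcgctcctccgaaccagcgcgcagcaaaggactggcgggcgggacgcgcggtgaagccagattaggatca
Dusp2: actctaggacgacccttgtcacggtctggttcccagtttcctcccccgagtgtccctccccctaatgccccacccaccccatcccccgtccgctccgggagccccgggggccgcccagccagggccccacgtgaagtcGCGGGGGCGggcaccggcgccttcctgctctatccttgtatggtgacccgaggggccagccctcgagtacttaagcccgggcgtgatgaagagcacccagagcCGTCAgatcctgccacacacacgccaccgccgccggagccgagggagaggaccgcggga
Dusp5: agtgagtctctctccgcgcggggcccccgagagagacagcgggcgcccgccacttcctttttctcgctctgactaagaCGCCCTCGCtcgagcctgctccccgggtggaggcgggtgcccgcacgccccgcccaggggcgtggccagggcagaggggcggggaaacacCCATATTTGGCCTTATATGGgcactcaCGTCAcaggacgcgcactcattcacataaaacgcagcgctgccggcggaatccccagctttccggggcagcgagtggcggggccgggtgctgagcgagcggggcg
Dusp6: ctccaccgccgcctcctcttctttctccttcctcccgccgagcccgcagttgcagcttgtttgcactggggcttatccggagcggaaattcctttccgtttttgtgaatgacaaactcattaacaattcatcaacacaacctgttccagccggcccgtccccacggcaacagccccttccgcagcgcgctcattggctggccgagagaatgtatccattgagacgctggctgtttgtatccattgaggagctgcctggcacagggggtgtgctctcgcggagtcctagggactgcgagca
Dusp7: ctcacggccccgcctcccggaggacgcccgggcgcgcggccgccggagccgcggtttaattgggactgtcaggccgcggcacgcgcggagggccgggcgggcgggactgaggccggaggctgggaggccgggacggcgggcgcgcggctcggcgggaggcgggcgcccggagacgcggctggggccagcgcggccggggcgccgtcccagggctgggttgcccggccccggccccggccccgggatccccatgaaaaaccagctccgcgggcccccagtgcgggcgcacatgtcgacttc

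The Dusp1 window held 1 full CRE at −124, a sequence found in 1.83% of the 33469 RefSeq promoter windows of the same length. The short form TGACG, which is also part of a full CRE, occurred in Dusp1, Dusp2, Dusp5 and Dusp16 and in 21.2% of all windows. An EGR site stood at −112 in Dusp2, at −172 in Dusp5 and at −157 in Dusp16, against 4.98% of all windows. Dusp5 had 2 adjacent CArG boxes at −82 and −72, and 1.64% of all windows held such a box. The AP-1 site TGANTCA, the ETS site CCGGAAG, the TATA box TATAAA and the NF-kB site matched in none of the 7 windows, and in 7.33%, 8.75%, 14.2% and 7.51% of all windows. GC content ran from 56.3% in Dusp10 to 81% in Dusp7, with a median of 51.7% over all windows. These matches describe the letters of the windows only.

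**Figure D1:**
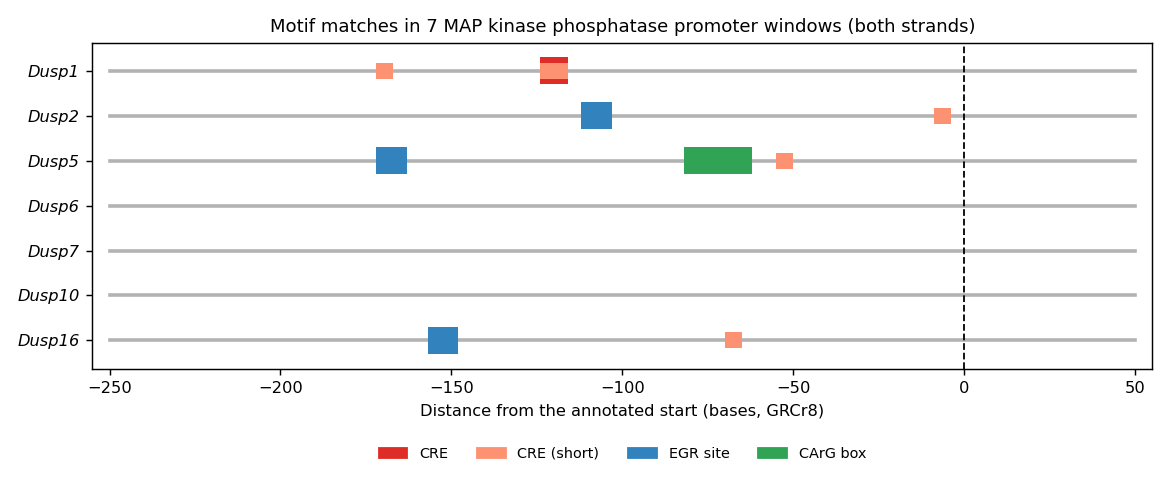
Each row is a promoter window, with distance from the annotated start in bases on the x axis (GRCr8), and the coloured blocks are motif matches on either strand. Dusp1, Dusp2, Dusp5 and Dusp16 hold matches, the full CRE only in Dusp1 and the CArG boxes only in Dusp5, whereas Dusp6, Dusp7 and Dusp10 hold none of the motifs searched.

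Dusp1, which is induced by stress signals and glucocorticoids and acts on p38, JNK and ERK, supplied most of the reads of the group, 76.8% to 85.2% of them in each library (not corrected for gene length). Its level was 116 and 104 CPM before and 181 and 119 CPM after CMG in the AngII model. DOCA–HS blood held 105 and 114 CPM before and 99.4 and 85.0 CPM after. The AngII libraries after CMG were thus both above those before, narrowly in the second replicate, and the DOCA–HS libraries after CMG were both below those before. The log2 fold change was 0.47 (SE 0.37) for AngII and −0.24 (SE 0.50) for DOCA–HS. Without the first AngII library after CMG the former was 0.07, and without the second DOCA–HS library after CMG the latter was −0.13. The group means, 150 ± 44.1, 110 ± 8.43, 110 ± 6.44 and 92.2 ± 10.2 CPM (SD, n = 2) for AngII after, AngII before, DOCA–HS before and DOCA–HS after CMG, differed between neighbours by less than their spread, except for the DOCA–HS groups.

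Dusp2, an inducible nuclear phosphatase of lymphocytes and other leukocytes, was at 10.6 and 8.44 CPM before and 4.64 and 4.51 CPM after CMG in the AngII model. The DOCA–HS libraries held 2.27 and 4.25 CPM before and 1.69 and 4.92 CPM after, from 41, 40, 22 and 7 counts. The AngII libraries before CMG were thus above all other 6 libraries, and the DOCA–HS groups overlapped. The log2 fold change in the AngII model was −1.05 (SE 0.30; 0.483-fold), at percentile 1.15 of the 7201 genes tested, and stayed between −1.25 and −0.87 with each library left out. For DOCA–HS it was −0.36 (SE 0.65), and it was −0.88 without the second library after CMG and 0.65 without the first.

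T-cell markers were also lower in sum after CMG in the AngII model. Over 10 of 10 listed genes they were at 211 to 239 CPM before and 133 to 183 CPM after CMG, with no marker at 0 in any AngII library. Of these genes 7, the CD3 genes and Lck among them, had both libraries after CMG below both before, and Cd28, Cd5 and Trat1 overlapped. The same sum in DOCA–HS blood was 224 to 227 CPM before and 150 to 160 CPM after. Their part in the Dusp2 values was not tested, and in bulk blood fewer cells of a type and less RNA per cell cannot be told apart.

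Dusp4, a nuclear phosphatase induced by ERK signalling, had 3 counts in the first DOCA–HS library before CMG (0.166 CPM) and 0 in the other 7. A count of 0 allows up to 3 counts, which is 0.222 to 2.11 CPM in those libraries, so its absence is not shown. It was too low for every fit with the filter on low counts.

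Dusp5, a nuclear phosphatase specific for ERK, was at 7.30 and 14.3 CPM before and 9.11 and 7.39 CPM after CMG in the AngII model, and these groups overlapped. DOCA–HS blood held it at 8.58 and 7.75 CPM before and 7.38 and 2.11 CPM after. The lowest of these values rested on 3 counts, with an exact Poisson 95% interval of 0.435 to 6.16 CPM that covers counting error only. Both DOCA–HS libraries after CMG were below those before, the first only narrowly. The log2 fold change was −0.35 (SE 0.37) in the AngII model, but 0.03 when scaled to total counts and 0.14 without the second library before CMG. For DOCA–HS it was −0.56 (SE 0.54), and −0.14 without the second library after CMG.

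Dusp6, the cytoplasmic phosphatase that inactivates ERK and is itself a transcript raised by ERK signalling, showed the largest difference of the group after CMG in the AngII model. It was at 5.10 and 2.03 CPM before, from 65 and 12 counts, and at 12.9 and 10.9 CPM after, from 81 and 148 counts. Both libraries after CMG were above both before, by more than the spread within either pair. The log2 fold change was 1.68 (SE 0.43; 3.20-fold), at percentile 99.4 of all genes tested. It depended on the library left out, being 2.56 without the first and 1.19 without the second library before CMG, and 1.49 and 1.79 without the first and second library after.

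DOCA–HS blood held Dusp6 at 9.58 and 7.75 CPM before and 9.07 and 2.11 CPM after CMG, the last from 3 counts. The groups overlapped, and the first library after CMG lay between the 2 before. The log2 fold change was −0.41 (SE 0.58), 0.07 without the second library after CMG and −2.04 without the first. Ordered by mean, Dusp6 ran from AngII after (11.9 ± 1.42 CPM, SD, n = 2) over DOCA–HS before (8.66 ± 1.29) and DOCA–HS after (5.59 ± 4.92) to AngII before (3.56 ± 2.18). Only the first of these steps separated all libraries of the neighbouring groups.

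Dusp7, the second cytoplasmic phosphatase of ERK among them, was at 4.0 and 3.38 CPM before and 5.43 and 9.31 CPM after CMG in the AngII model. Under DOCA–HS it was at 7.03 and 9.34 CPM before and 6.38 and 2.11 CPM after, the last again from 3 counts. As for Dusp1, both libraries after CMG were above those before under AngII and below them under DOCA–HS. The log2 fold changes were 1.02 (SE 0.35; 2.03-fold) and −0.72 (SE 0.53). Without the second AngII library after CMG the former was 0.56, and without the second DOCA–HS library after CMG the latter was −0.34.

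Monocyte and cytotoxic lymphocyte markers were also higher after CMG in the AngII model, where Dusp6 and Dusp7 were higher. Over 7 of 8 listed genes each, the monocyte sum was 403 to 419 CPM before and 518 to 520 CPM after, and the cytotoxic sum was 37.4 to 38.8 and 69.6 to 77.8 CPM, with no marker at 0. Neutrophil markers, 8 of 8, were at 239 to 247 CPM before and 211 to 238 CPM after. Under DOCA–HS the platelet sum, 5 of 8 listed genes with Gp1bb at 0 throughout, was 182 to 264 CPM before and 522 to 948 CPM after, while B-cell markers, 7 of 8, were at 86.9 to 120 and 35.1 to 67.3 CPM. Cytotoxic markers there were at 22.4 to 40.0 and 45.5 to 70.3 CPM, and endothelial markers, 8 of 8 but with Cdh5 at 0 in both libraries after CMG, at 32.9 to 52.1 and 61.4 to 162 CPM, while the monocyte and neutrophil sums overlapped. Within the endothelial list it was Vwf, also a platelet gene, that was higher (log2 fold change 1.92), whereas Pecam1 (−0.19) and Tie1 (−0.22) were not. The part of these cells in the phosphatase values was not tested.

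Dusp10, which prefers JNK and p38 and is known for its role in T cells and innate immune cells, was at 3.46 and 2.19 CPM before and 0.639 and 1.48 CPM after CMG in the AngII model. Both libraries after CMG were below both before, the lower of them at 4 counts. The log2 fold change was −1.32 (SE 0.51; 0.400-fold), at percentile 0.528, and ran from −2.15 without the second library after CMG to −0.94 without the first before. Under DOCA–HS it was at 1.11 and 1.59 CPM before and 1.15 and 3.51 CPM after, the last from 5 counts, and the groups overlapped. That log2 fold change was 0.32 (SE 0.72), but −0.17 without the second library after CMG and −0.43 when scaled to total counts.

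Dusp16, a phosphatase of JNK and p38 that shuttles between nucleus and cytoplasm, had 0 to 21 counts a library. It was at 1.02 and 1.18 CPM before and 0.959 and 1.11 CPM after CMG in the AngII model. DOCA–HS libraries held 1.16 and 0.318 CPM before and 0.538 and 0 CPM after. The groups overlapped in both models, and the 0 allows up to 2.11 CPM. It was too low for the fit of either model alone. The other typical MAP kinase phosphatases were lower still, with at most 2 counts of Dusp8 in a library and 0 of Dusp9.

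**Figure D2:**
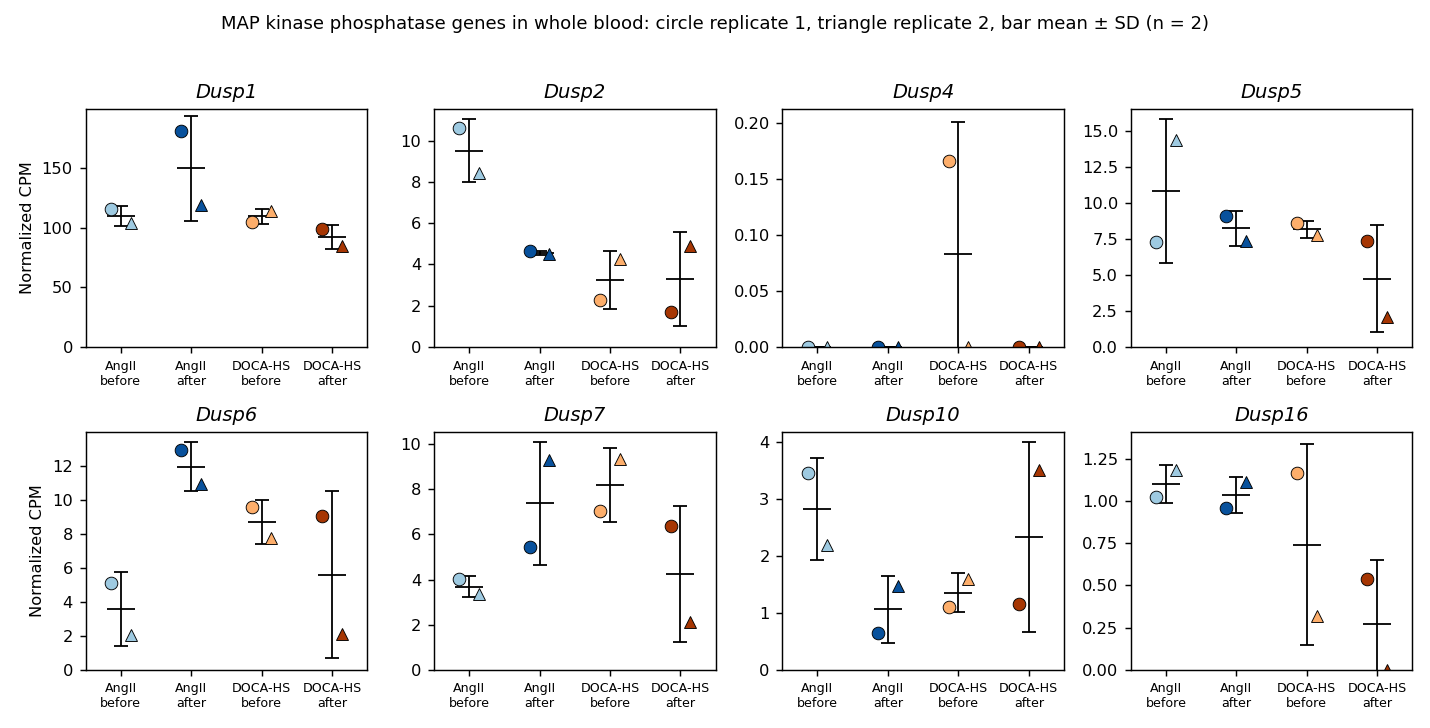
Each panel shows normalized CPM of 1 gene (y axes start at 0 and differ between panels) in the 4 groups, with a circle for replicate 1, a triangle for replicate 2 and the mean ± SD (n = 2; bars that would pass below 0 are drawn to 0). In the AngII model the points of Dusp2 and Dusp10 lie lower and those of Dusp6 and Dusp7 higher after CMG than before, while the second DOCA–HS library after CMG is at 2.11 CPM for Dusp5, Dusp6 and Dusp7.

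Across the group, 6 of the 8 genes passed the filter on low counts in each model, all but Dusp4 and Dusp16. A gene was called when its log2 fold change passed 1.5 in size at an unadjusted p of 0.05 or less. By this criterion edgeR called 1 of these 6, Dusp6, higher after CMG in the AngII model and 0 lower. Over all 7201 genes tested there, 1.24% were called, 65 higher (0.903%) and 24 lower (0.333%), and 210 higher and 12 lower when scaled to total counts. Without the second library before CMG the call was lost and Dusp10 was called lower instead. Without the first library after CMG 0 were called, and without the second both Dusp6 and Dusp10. By rank alone, 3 of the 6 genes had both AngII libraries after CMG above both before, against 21.3% of the genes tested, and 2 had both below, against 18.5%. The median log2 fold change of the 6 genes was 0.06, beside −0.01 for all genes, and for the same genes it ran from −0.24 to 0.24 with 1 library left out.

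Under DOCA–HS 0 of the 6 genes were called, against 2.05% of 7720 genes, of which 138 were higher (1.79%) and 20 lower (0.259%), but 0 and 9 when scaled to total counts. Among the 6 genes 3, Dusp1, Dusp5 and Dusp7, had both libraries after CMG below both before, against 21.1% of the genes tested, and 0 had both above, against 14.7%. The median of the 6 genes was −0.39, beside −0.04 for all genes. The second library after CMG weighed on these values, the median of the same 6 genes being −0.16 without it. When the first library after CMG was left out, that median was −1.15 and Dusp5, Dusp6 and Dusp7 were called lower, in a fit that called 606 genes higher and 1106 lower of 8126.

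**Figure D3:**
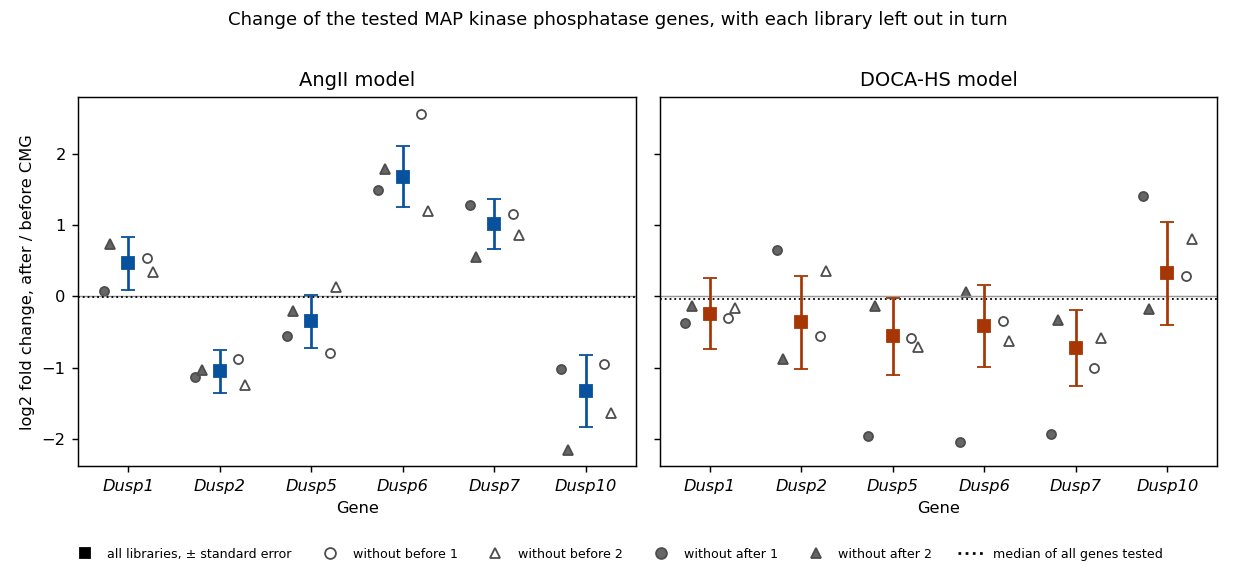
The y axis is the log2 fold change after against before CMG for the 6 genes tested in each model, with squares and standard error bars for the fit of all 4 libraries and small symbols for fits without 1 library. In the AngII model Dusp6 and Dusp7 lie above 0 and Dusp2 and Dusp10 below 0 in every fit shown, whereas in the DOCA–HS model the fit without the first library after CMG moves Dusp5, Dusp6 and Dusp7 to between −2.04 and −1.94.

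Averaged over both models with the model as a covariate, 7 of the 8 genes were tested and 0 were called, against 0.325% of 7994 genes (13 higher and 13 lower, 0.163% each, but 5 and 10 when scaled to total counts). Dusp2 had the lowest average, −0.80 (SE 0.35), with a value below 0 in both models. Dusp6 had the highest, 0.66 (SE 0.49), from values of opposite sign. The averages of the remaining genes were −0.62 (SE 0.49) for Dusp10, −0.45 (SE 0.33) for Dusp5, −0.35 (SE 0.52) for Dusp16, 0.18 (SE 0.40) for Dusp7 and 0.10 (SE 0.31) for Dusp1.

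The change after CMG in the DOCA–HS model minus that in the AngII model was largest for the cytoplasmic phosphatases of ERK. It was −2.06 (SE 0.77) for Dusp6 and −1.69 (SE 0.65) for Dusp7, and these 2 of the 7 genes tested were called lower, against 3.16% of 7994 genes called and 0.913% called lower. Dusp10 went the other way, at 1.66 (SE 0.89), and was not called with all libraries. For Dusp2 the difference was 0.69 (SE 0.72), but −0.44 scaled to total counts and −0.02 scaled to counts outside hemoglobin. Without the second DOCA–HS library after CMG, Dusp6 was at −1.59 and still called, and Dusp7 was at −1.35 and not called. The number called fell to 0 without the second AngII library before CMG and reached 4 without the first DOCA–HS library after CMG, in a fit that called 1922 of 8278 genes, and 0 were called when scaled to total counts. Over all genes the calls were 180 higher (2.25%) and 73 lower, but 2 and 30 scaled to total counts.

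Before CMG the models were compared as well. Against the AngII libraries of week 1, the DOCA–HS libraries of week 3 were lower in Dusp2, at 2.27 and 4.25 against 10.6 and 8.44 CPM, with a log2 difference of −1.59 (SE 0.46). This was the only 1 of the 7 genes tested that was called, against 0.838% of 7994 genes (34 higher, 0.425%, and 33 lower, 0.413%, but 42 and 3 scaled to total counts). It fell short of the criterion without the first AngII library before CMG (−1.40) and without the first DOCA–HS library before CMG (−1.15), and when scaled to total counts (−0.88) or to counts outside hemoglobin (−0.90). Dusp6 was called higher instead without the first AngII library before CMG, and Dusp6 and Dusp7 when scaled to counts outside hemoglobin. Dusp6 (1.22, SE 0.54) and Dusp7 (1.13, SE 0.45) were higher and Dusp10 (−1.13, SE 0.56) lower in the DOCA–HS libraries. The groups did not overlap for these genes, but the share of all genes without overlap was not computed for this comparison, so no weight is put on it. The shares after against before CMG in the AngII model, 21.3% with both libraries above and 18.5% with both below, are of another comparison and no baseline here. Without 1 library Dusp6 ran from 0.76 to 2.09 and Dusp10 from −1.43 to −0.73, and Dusp10 was at −0.37 when scaled to total counts. Dusp1 hardly differed, at −0.01 (SE 0.41), and Dusp5 and Dusp16 were at −0.39 (SE 0.47) and −0.43 (SE 0.69), with all 3 of these above 0 when scaled to total counts. Model, week of sampling and any difference in handling cannot be told apart, and this comparison and the change in the AngII model share the AngII libraries before CMG.

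Around the phosphatases, 117 other genes of MAP kinase signalling were listed by role, and 113 of them were among the counts. Of 70 tested in the AngII model 4 passed the criterion, all lower after CMG, and of 74 tested under DOCA–HS 3 passed, all lower. Over all genes tested 1.24% passed for AngII (0.333% lower) and 2.05% for DOCA–HS (0.259% lower). With Benjamini-Hochberg adjustment over all genes, edgeR called 0 genes of the whole table in either model, and DESeq2 called 3 and 0. At an unadjusted p of at most 0.05, edgeR called 5 of the listed genes higher and 7 lower in the AngII model, where 6.65% of all genes passed. For DOCA–HS it called 1 higher and 3 lower, where 3.17% of all genes passed. The medians of the listed genes were −0.01 and −0.15, beside −0.01 and −0.04 for all genes.

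The called genes were all immediate early genes, the rapidly transcribed targets of MAP kinases. Egr1, a zinc finger factor that ERK signalling switches on, was at 8.40 and 11 CPM before and 1.44 and 1.85 CPM after CMG in the AngII model. DOCA–HS blood held it at 21.7 and 2.65 CPM before and 1.77 and 1.41 CPM after, so that its difference there came mainly from the first library before CMG. Its log2 fold changes were −2.49 (SE 0.33, adjusted p = 0.474 by edgeR's quasi-likelihood test) and −2.87 (SE 0.97, adjusted p = 0.997), the latter −0.68 without that library. Jun, a subunit of the AP-1 factor, was at 26.4 and 39.5 CPM before and 13.7 and 7.61 CPM after in the AngII model, with log2 fold changes of −1.61 (SE 0.39) there and −1.74 (SE 0.56) under DOCA–HS. These were −1.23 without the second AngII library after CMG, −1.34 without the second before, and −1.07 without the first DOCA–HS library before CMG. Fosb, another AP-1 subunit, changed by −2.85 (SE 0.94) and −3.07 (SE 1.01), but by −0.62 without the second AngII library before CMG and by −1.08 without the first DOCA–HS library before CMG. Atf3, a stress-induced repressor, was the fourth gene called in the AngII model, at −2.51 (SE 0.68), from means of 16 counts before and 3 after CMG. It is named here after its values were seen.

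The list of immediate early genes held 23 genes, and it also took in Srf, Elk1, Elk3 and Elk4, factors that regulate such genes. The counts here are therefore those of the list, of which 16 genes were tested in each model. Of these, 15 for AngII and 13 for DOCA–HS had log2 fold changes below 0, where 51% and 52.5% of all genes did. Their medians were −0.44 and −0.34. Egr1, Jun and Fosb are among the genes that the study singled out from these libraries, so their part in these counts is not independent evidence of the direction.

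None of the genes listed as MAP kinases or MAP kinase kinases passed an unadjusted p of 0.05 in either model by edgeR. Outside these and the immediate early genes, those that did so in the AngII model were higher, except for Ppm1a, and their adjusted p by edgeR ran from 0.628 to 0.747. Dusp3, an atypical phosphatase of ERK and JNK, was at 4.16 and 3.21 CPM before and 6.23 and 5.99 CPM after, with a log2 fold change of 0.72 (SE 0.31). Rasgrp4, an activator of Ras in myeloid cells, was at 0.98 (SE 0.31), and Mapkapk3, a kinase downstream of p38, at 0.94 (SE 0.35). Spag9, a scaffold of JNK, was at 0.97 (SE 0.34), and Ppm1a, a serine/threonine phosphatase of the stress kinases, at −0.73 (SE 0.31). Under DOCA–HS it was only Rps6ka5, a nuclear kinase activated by ERK and p38, at 1.07 (SE 0.46, adjusted p = 0.997 by edgeR).

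**Figure D4:**
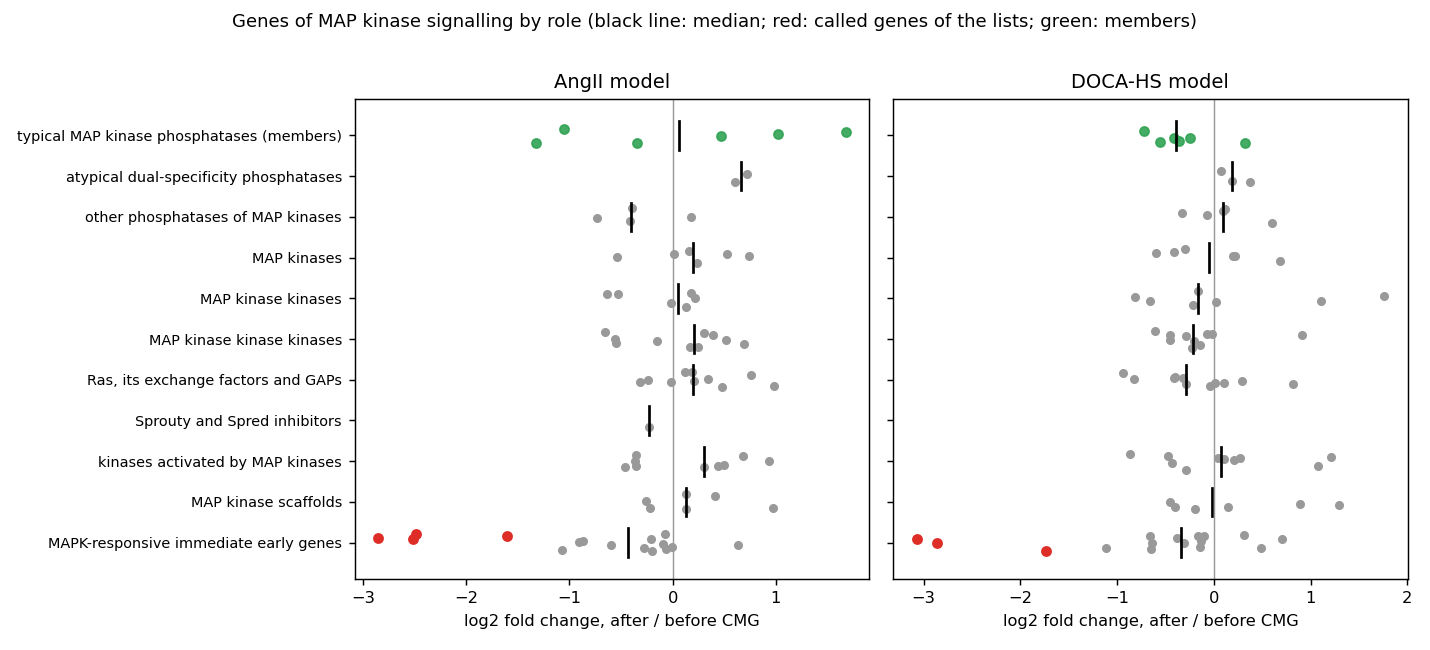
Points are log2 fold changes after against before CMG (x axis) of the tested genes of each role (rows), with the 6 phosphatase genes in green, genes of the lists past the criterion in red and black lines at the medians. The red points are all immediate early genes, 4 for AngII and 3 for DOCA–HS, and the phosphatases spread to both sides of 0 in the AngII model.

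Among Dusp1, Dusp2, Dusp5, Dusp6 and Dusp7, the genes with a mean of at least 20 counts, the patterns of Dusp6 and Dusp7 across libraries were most alike. The correlation of their log2 CPM was r = 0.834 over all 8 libraries and 0.728 over 7, without the second DOCA–HS library after CMG. Dusp5 against Dusp6 changed from 0.295 to −0.724 when that library was left out. Dusp2 ran against Dusp6, with r = −0.531 and −0.614. These correlations describe 8 libraries that share group, depth and scaling, and are given with no p.

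Among 5957 genes with a mean of at least 20 counts, those closest to Dusp1 over the 8 libraries were Sgms1 (r = 0.970), Arrdc3 (0.939) and Hikeshi (0.905). Dusp2 was closest to Akr7a3 (0.946), Lpin2 (0.946) and Emb (0.942), and Dusp5 to Dnaaf2 (0.992), Fig4 (0.987) and Snw1 (0.985). The nearest to Dusp6 were Zfp263 (0.983), Ranbp2 (0.982) and Spag9 (0.968), the scaffold of JNK above, and the nearest to Dusp7 were Oxct1 (0.992), Rbm14 (0.975) and LOC499331 (0.968). Over the 7 libraries without the second DOCA–HS library after CMG these values ran from 0.869 to 0.988.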

How the data were processed

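RNA was isolated by the authors from whole blood (the labels give cardiac puncture into heparin), and directional libraries were read as single ends. Per the labels and the methods, the authors aligned reads to rn6 with HISAT2 and counted them on genes by strand with HTSeq. The deposited counts are not normalized, and they list 17446 genes, of which 5754 had no reads throughout. Hemoglobin annotations are stated to have been removed, yet hemoglobin genes are listed.

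Counts were fitted over all genes with edgeR 4.0.16 in R 4.3.3 (filterByExpr, TMM, glmQLFit, glmQLFTest), with the libraries of each model alone and with all 8 libraries for the average change, the difference of changes and the models before CMG. The standard error is the log2 fold change divided by the root of F. The criterion of the study, a log2 fold change beyond 1.5 with an unadjusted p of at most 0.05, was used for calls. CPM used TMM factors from 7994 genes, and log2 CPM a prior count of 2. The computation was tested on simulated data. Nothing says that libraries of a group came from separate rats, so spread and p-values may be technical.

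The phosphatases and the lists were chosen with earlier results of these data known. Named genes were all 8 phosphatases, Dusp8 and Dusp9, per list at most the 3 genes with the smallest unadjusted p of at most 0.05, and the 3 genes closest to each phosphatase with a mean of at least 20 counts. A gene that this rule names is not reported here. Alternatives were DESeq2 1.42.0, its size factors, other filters and scalings, the replicate block, 1 fit of all libraries, and each library left out. Promoter windows of 300 bases came from RefSeq (GRCr8), another assembly than that of the alignment.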

Additional observations from a re-analysis of the deposited data

Results flagged for a closer look

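A pair of the phosphatase genes moved in opposite directions in the models in every library. For Dusp7 the change after CMG in the DOCA–HS model minus that in the AngII model was −1.69 (SE 0.65, log2). For Dusp1 it was −0.69 (SE 0.59). Both AngII libraries after CMG were above both before, and both DOCA–HS libraries after CMG were below both before. By rank alone, 21.3% of all genes tested showed the former and 21.1% the latter. The share of genes showing both is not given here. For Dusp1 the AngII libraries were separated narrowly, at 119 CPM after against 116 CPM before. For both genes and under either treatment, the exact Poisson 95% intervals of the nearest libraries before and after CMG overlapped. The values are a description given without p, since the genes were chosen with results of these libraries in view. With 1 library left out the difference ran from −2.94 to −1.23 for Dusp7 and from −0.97 to −0.36, the latter without the first AngII library after CMG, for Dusp1. Scaled to total counts it was −2.68 and −1.70.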

How the results depend on the processing

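With 2 libraries a group, single libraries decided several calls. In the AngII model the number of phosphatase genes called (1) ran from 0 (without the first library after CMG) to 2 with 1 library left out, and that of pathway genes (4) from 2 to 5, and was 1 when each library had to hold at least 10 counts. The AngII median (0.06) was 0.40 for total counts and for counts outside hemoglobin, beside 0.36 and 0.38 for all genes. With at least 10 counts in every library it was 0.50 over 5 genes, beside −0.01 for all genes. In the DOCA–HS model the phosphatases called (0) ran to 3, their median (−0.39 over 6 genes) from −1.94 to −0.17 over the genes each fit tested (−1.15 to −0.16 over the same 6) with −1.03 scaled to total counts, and the pathway genes called (3) from 0 (without the first library before CMG) to 19 (without the first after CMG), with 5 without a filter and 0 with at least 10 counts. In the average change the pathway genes called (3) were 0 with at least 10 counts. For the difference of changes the phosphatases called (2) ran from 0 to 4, with 0 for at least 10 counts or total counts, and their median (−0.69) from −1.58 to −0.17, with −1.70 for total counts and −1.42 for counts outside hemoglobin. Before CMG those called (1) ran from 0 to 1, with 0 for at least 10 counts or total counts and 2 for counts outside hemoglobin, and the median (−0.39) was 0.24, 0.46 and 0.35 in that order. At least 10 counts in every library left only Dusp1 tested in all fits but that of the AngII model. The cause of the other moves was not tested.

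The scalings moved the median of all genes, in the AngII model from −0.01 to 0.36 (total counts) and 0.38 (counts outside hemoglobin), in the DOCA–HS model from −0.04 to −0.76 and −0.41, in the difference of changes from −0.12 to −1.21 and −0.89, and before CMG from 0.06 to 0.86 and 0.78. Scaled to counts outside hemoglobin, the calls over all genes were 225 higher and 13 lower, 20 and 12, 14 and 150, and 279 and 5 in that order. Without a filter 201, 268, 577 and 146 genes were called in place of 89, 158, 253 and 67, and with at least 10 counts 22, 32, 40 and 2. For the average change these were 120 and 2 in place of 26. DESeq2 and its size factors kept the sign of every phosphatase.

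Libraries share replicate numbers, but nothing says that a number marks a rat, and with 2 pairs a model the numbers were not taken as pairs. Deviations of same-numbered libraries correlated at 0.449 (AngII) and 0.322 (DOCA–HS) over 7403 genes. With the replicate block, 1 phosphatase gene was called for AngII and 0 for DOCA–HS as without it, at medians of 0.06 and −0.46, and 3 were called for the difference of changes, at a median of −0.67. Over all genes the block gave 105, 141 and 454 calls in these fits, and 165, 0 and 5 at an adjusted p under 0.05 in edgeR. No block fit was run for the models before CMG, which are different rats. Depth limits Dusp4, Dusp16 and every value of the second DOCA–HS library after CMG.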

Other observations

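Genes of MAP kinase signalling outside the rule for naming also differed between the models, and they are named after their values were seen. The change of Atf3 after CMG was higher in the DOCA–HS model than in the AngII model by 2.86 (SE 1.08, log2), and that of Map2k2, which encodes the ERK kinase MEK2, by 1.65 (SE 0.71). Neither passed Benjamini-Hochberg adjustment over all genes in edgeR, with an adjusted p of 0.881 for both. Before CMG, Ppm1d, a phosphatase induced by p53 that acts on p38, differed between the DOCA–HS and the AngII libraries by −1.12 (SE 0.49, adjusted p = 0.992 by edgeR).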
